A study of Homo sapiens with 12 samples.

Results

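EP300 siRNA was compared with a control siRNA in AC16 cells that had also been exposed to hydrogen peroxide (H2O2). AC16 is an established human line, made by fusing ventricular heart cells with transformed fibroblasts. Titles that name the siRNA and H2O2 picked out the libraries, 3 with control siRNA and H2O2 (7, 8 and 9) and 3 with EP300 siRNA and H2O2 (10, 11 and 12), 6 of the 12 in the study. Cells of both groups were serum-starved, transfected, exposed to H2O2 for 1 h and kept in complete medium for 48 h before RNA isolation. The labels give the H2O2 dose as 200 mM; whether that unit is right is uncertain, and the true dose may have been lower. A treatment field for the EP300 siRNA samples names MLF1 in place of EP300. The other 6 libraries had the same siRNAs without H2O2 (control siRNA, 1 to 3, and EP300 siRNA, 4 to 6) and are used here only to ask where the EP300 siRNA effect differed with the oxidant. The labels name no separate cultures behind the 3 libraries of each group. The p-values therefore measure only how far these samples spread, which may be technical.

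EP300 encodes p300, an enzyme that acetylates histones and other proteins. With its paralog CREBBP (CBP) it is recruited by many DNA-binding factors, among them HIF1A, NF-kB, SMADs, STATs, p53, GATA4 and AP-1, to enhancers and promoters, where its acetyl marks are read by bromodomain proteins. In heart muscle it has been studied mainly as a coactivator in hypertrophic growth, fibrosis and the response to oxidants. Results are ordered from chromatin regulators through signals and matrix to cell cycle, redox and metabolic genes.

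EP300, at chromosome 22, positions 41091786 to 41180079, plus strand of GRCh38, read 59.9, 80.4 and 89.9 CPM with control siRNA and 30.1, 26.9 and 26.5 CPM with EP300 siRNA. All libraries with its siRNA lay below all controls, with 36.3% of the control level left and a log2 fold change of -1.46 ± 0.14 (SE, adjusted p = 5.9e-07 with edgeR). CPM here are counts scaled to the library total after TMM adjustment. MLF1 fell too, by less, with 82.1% of its control level left (log2 fold change -0.29 ± 0.059 SE). CREBBP read 84.4, 91.2 and 99.1 CPM with control siRNA and 141, 125 and 123 CPM with EP300 siRNA, higher in each EP300 siRNA library than in any control (log2 fold change 0.50 ± 0.089 SE, adjusted p = 0.00019 with edgeR).

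Libraries held 16081437 to 19033679 estimated counts. Libraries of 1 group differed from each other along a shared axis whose gene loadings had, over genes, a rank correlation of 0.70 with gene length and of -0.46 with GC content. It held 28.6% of the variance within groups, with library 7 at -13.9 and library 9 at 12.1 among controls and library 10 at 15.8 and library 11 at -10.1 in the EP300 siRNA group. Of 13 cardiomyocyte markers in the table, 12 stayed under 1 CPM in all 6 libraries, troponins and cardiac myosins among them, and natriuretic peptide NPPB held most of the summed level of 46.6 to 63.8 CPM in controls and 37.1 to 46.1 CPM with EP300 siRNA. The 13 fibroblast markers summed to 9275 to 9752 CPM in controls and 7634 to 8049 CPM with EP300 siRNA. The 2 groups' sums did not overlap for either list, nor for markers of endothelial cells (34.95 to 39.97 CPM in controls, 16.2 to 17.8 CPM with EP300 siRNA), epithelium (575.6 to 627.5 and 447.1 to 524.3 CPM), smooth muscle (1235 to 1273 and 1281 to 1440.0 CPM) or leukocytes (54.7 to 56.7 and 70.5 to 84.4 CPM; exact permutation p = 0.10, two-sided, the smallest that 3 against 3 allows). The part of cell composition in what follows was not tested, and fewer cells of a type and less RNA per cell cannot be told apart.

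A gene is called below when its edgeR adjusted p, over all 13171 genes tested, was under 0.05. With EP300 siRNA 28.4% of genes were called higher, 30.6% lower and 59.0% in either direction, so a list's counts are read against these shares. Far fewer changed at least 2-fold, 2.62% of all genes higher and 6.80% lower. Over all genes the log2 fold change had a median of -0.019. Each list's median log2 fold change is given in brackets, and where another setting turned it or moved it by more than 1.5 times, and by at least 0.05, the farthest such values follow, with any left-out library that did so. Without the count filter genes of few or no counts enter the lists. Genes given without CPM may have a mean near 1 CPM, where few counts stand behind the fold change. Log2 fold changes are EP300 siRNA over control siRNA, both with H2O2, and carry the standard error (SE) of the fit.

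**Figure D1:**
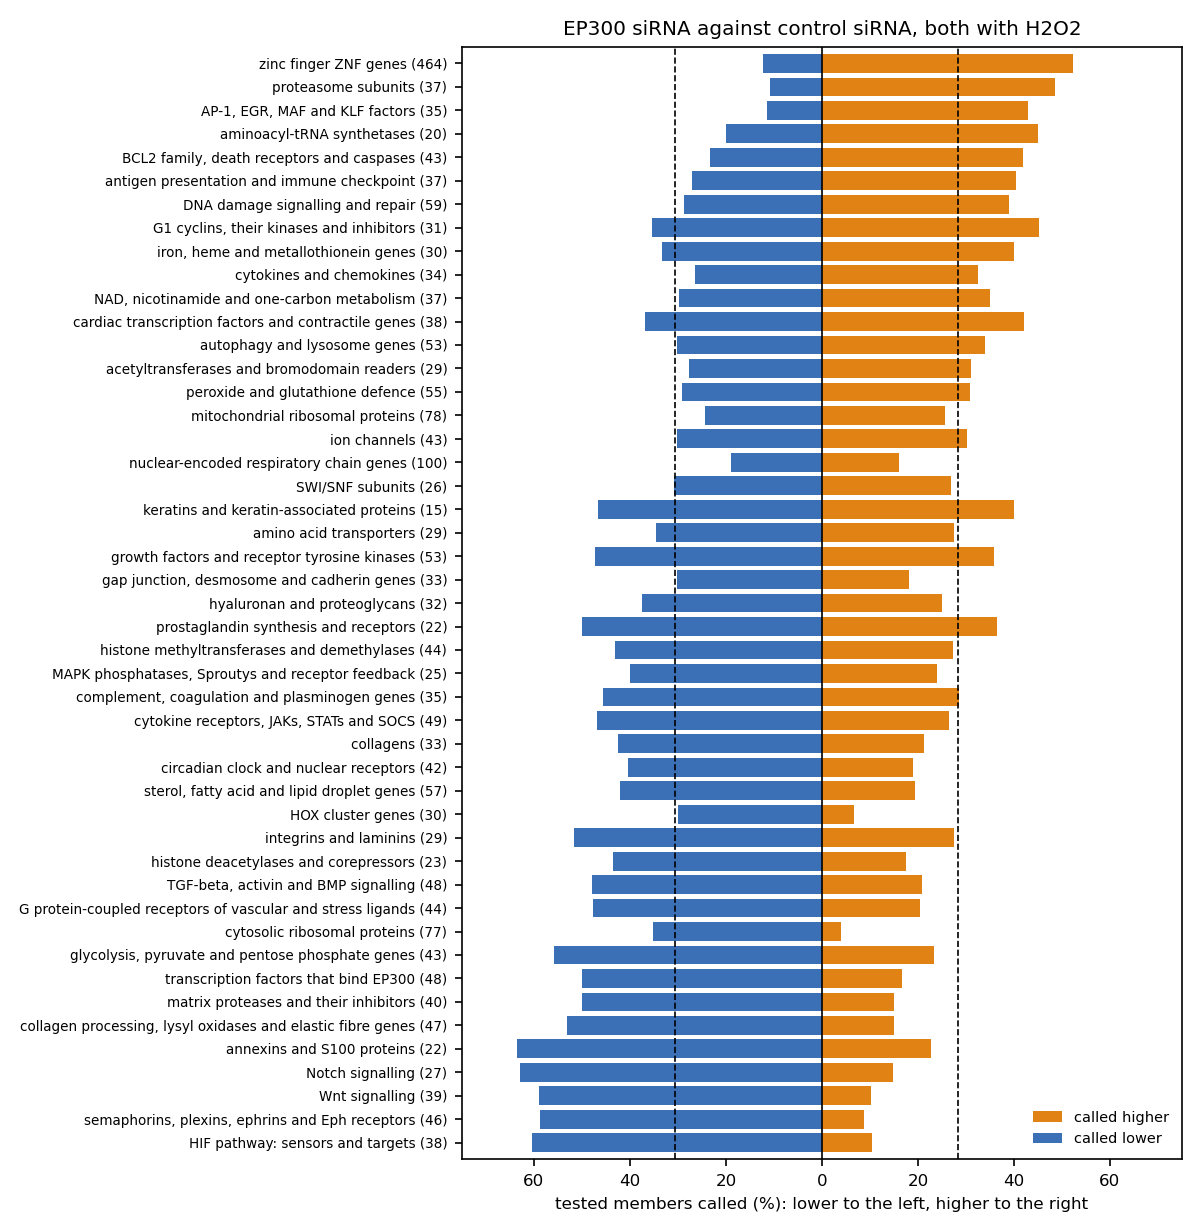
Share of the tested members of each gene list called higher (right, orange) or lower (left, blue) with EP300 siRNA in H2O2-treated cells, in percent, with tested members in brackets. Dashed lines mark the shares over all genes, 28.4% higher and 30.6% lower. The share called higher was largest for ZNF genes, and the share called lower was largest for annexins and S100 proteins and for Notch genes.

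Several genes for enzymes that remove acetyl groups, methylate histones or remodel chromatin changed by 2-fold or more. The deacetylases HDAC1 and HDAC9 and the lysine methyltransferase SETD7 rose, and HDAC11 and the SWI/SNF subunits SMARCD3 and SMARCD2 fell. Of 29 acetyltransferases and bromodomain readers 9 were called higher and 8 lower, near the shares over all genes (median 0.0063, -0.061 with the length offset). Of 23 deacetylases and corepressors 4 were higher and 10 lower (median -0.15, -0.017 with the GC offset), and of 44 histone methyltransferases and demethylases 12 were higher and 19 lower (median -0.10, 0.013 with the GC offset, -0.029 without library 9, -0.041 without library 11).

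HDAC1, at chromosome 1, positions 32292086 to 32333635, plus strand, is a catalytic subunit of the NuRD, SIN3 and CoREST corepressor complexes. It read 107, 112 and 130.5 CPM with control siRNA and 277, 276 and 286 CPM with EP300 siRNA. EP300 siRNA libraries were tightly grouped and all above 270 CPM, with every control lower, a log2 fold change of 1.26 ± 0.066 (SE, adjusted p = 7.8e-10 with edgeR). HDAC9, a class IIa deacetylase that binds MEF2, read 12.2, 13.6 and 14.6 CPM with control siRNA and 44.1, 38.6 and 35.1 CPM with EP300 siRNA. Its lowest EP300 siRNA library stood well above its highest control, and the log2 fold change was 1.55 ± 0.13 (SE, adjusted p = 1.7e-07 with edgeR). HDAC11, the only class IV deacetylase, fell by 1.56, while SIRT1 (0.078, adjusted p = 0.47 with edgeR), a nuclear NAD-dependent deacetylase, did not pass the test.

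SETD7, at chromosome 4, positions 139495941 to 139606699, minus strand, methylates histone H3 lysine 4 and several transcription factors. It read 25.5, 29.7 and 31.6 CPM with control siRNA and 142, 124 and 114 CPM with EP300 siRNA, with no overlap between the groups and a log2 fold change of 2.13 ± 0.11 (SE, adjusted p = 1e-09 with edgeR). SUV39H2, which places H3 lysine 9 trimethylation, rose (0.99 ± 0.066), and KDM5B, an H3 lysine 4 demethylase, fell by 0.88. EZH2, the H3 lysine 27 methyltransferase of Polycomb repressive complex 2, had a log2 fold change of 0.053 (adjusted p = 0.5 with edgeR). Among bromodomain and acetyltransferase genes BRD2 fell by 0.73 and the scaffold BRPF1 and the acetyltransferase KAT6A, which form a complex, rose (0.90 and 0.52).

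The 3 alternative SMARCD subunits of SWI/SNF went different ways. SMARCD3 (BAF60C), the form enriched in heart, at chromosome 7, positions 151238764 to 151277896, minus strand, read 13.7, 12.8 and 13.5 CPM with control siRNA and 2.7, 2 and 1.88 CPM with EP300 siRNA. No EP300 siRNA library reached 3 CPM and no control was below 12 CPM, a log2 fold change of -2.60 ± 0.13 (SE, adjusted p = 4.2e-10 with edgeR). SMARCD2 fell by 1.01 and SMARCD1 rose (0.46). The catalytic subunit SMARCA2 rose (0.50), and 26 subunits in all gave 7 higher and 8 lower (median 0.062, 0.12 with the GC offset). With an offset for GC content 11 were higher and 9 lower.

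Transcription factors known to bind p300 numbered 48, of which 24 were called lower and 8 higher (median -0.15). SMAD3, the TGF-beta effector, fell by 1.08 and RUNX2, a skeletal and fibroblast factor, by 0.89. GATA6, counted in the cardiac list and not here, fell by 1.03. HIF1A itself fell by 0.37, and EPAS1 (0.056, adjusted p = 0.53 with edgeR), which encodes HIF-2 alpha, did not pass. STAT3 rose (0.59), as did FOS (2.12). CREBBP, described above, rose too but was counted with the acetyltransferases and not here.

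Genes of the HIF pathway were mostly lower. HIF factors, stabilised when prolyl hydroxylases lack oxygen or iron, recruit p300 through a C-terminal domain of the alpha subunit and act at the core letters ACGTG. Of 38 members 23 were called lower and 4 higher (median -0.33), and for 10 the effect differed between cells with and without H2O2 (edgeR interaction, called for 3.33% of all genes). CA9, the carbonic anhydrase of hypoxic tumour cells, read 58.7, 55.3 and 45.5 CPM with control siRNA and 6.4, 5.77 and 8.11 CPM with EP300 siRNA. Controls lay at 45 CPM or above and EP300 siRNA libraries below 9 CPM, and the log2 fold change was -2.97 ± 0.13 (SE, adjusted p = 1.5e-10 with edgeR).

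Promoter sequences of CA9 and of lactate dehydrogenase LDHA are shown because both genes fell and hold the HIF core. They are the 150 and 250 bases before the RefSeq start on GRCh38.p14, plus strand, with each match to the core on either strand in capitals, overlapping matches merged.
CA9, chr9:35673778-35673927: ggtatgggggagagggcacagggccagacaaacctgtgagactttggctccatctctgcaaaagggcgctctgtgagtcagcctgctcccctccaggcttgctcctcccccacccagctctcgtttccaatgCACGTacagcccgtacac
LDHA, chr11:18394313-18394562: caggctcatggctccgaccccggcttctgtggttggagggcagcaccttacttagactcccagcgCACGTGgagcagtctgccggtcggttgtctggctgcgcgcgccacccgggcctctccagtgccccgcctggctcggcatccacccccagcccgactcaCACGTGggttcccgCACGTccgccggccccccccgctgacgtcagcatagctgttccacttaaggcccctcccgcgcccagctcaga
The core ACGTG was found in the 250 bases before the start of 7 of 18 promoters of HIF list members called lower (38.9%) and in 23.3% of 10664 promoters of tested genes. It was in 20.9% of 657 promoters of genes that fell at least 2-fold. Among 13 promoters of AP-1, EGR, MAF and KLF genes called higher it was in 30.8%. HIF list members not called lower were not counted. A match is a description of letters and not a binding site.

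LDHA, which turns pyruvate to lactate, fell by 1.07. VEGFA, the main angiogenic growth factor, at chromosome 6, positions 43770184 to 43786487, plus strand, read 107, 125 and 124 CPM with control siRNA and 62.3, 68.8 and 66.9 CPM with EP300 siRNA. Controls were all above 100 CPM and EP300 siRNA libraries all below 70 CPM, a log2 fold change of -0.84 ± 0.072 (SE, adjusted p = 1.4e-07 with edgeR). Without H2O2 it read 60.6, 53.5 and 55.6 CPM with control siRNA and 54.2, 56.9 and 59 CPM with EP300 siRNA, the groups overlapping (log2 fold change 0.0035 ± 0.074), and the difference between the effects was -0.85 ± 0.10 (SE, adjusted p = 0.00061 with edgeR). STC1, a secreted glycoprotein hormone, read 17, 17.7 and 19.1 CPM with control siRNA and 2.92, 2.52 and 3.42 CPM with EP300 siRNA, a fall of every EP300 siRNA library below the controls (log2 fold change -2.60 ± 0.11 SE, adjusted p = 1.6e-10 with edgeR). Without H2O2 its log2 fold change was -1.30, a difference of -1.29 ± 0.17 (SE, adjusted p = 0.0012 with edgeR). NDRG1, a stress-induced cytosolic protein, fell by 1.34, and its effect differed too (-0.65 ± 0.089 SE, adjusted p = 0.0013 with edgeR).

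DDIT4 (REDD1), an inhibitor of mTORC1, went in opposite directions. With H2O2 it read 60.2, 57.1 and 49.6 CPM with control siRNA and 32.1, 31.5 and 36.1 CPM with EP300 siRNA, every EP300 siRNA library below every control (log2 fold change -0.74 ± 0.10 SE, adjusted p = 1.2e-05 with edgeR). Without H2O2 it read 35.5, 39.6 and 45.6 CPM with control siRNA and 50.5, 58.4 and 54.7 CPM with EP300 siRNA, every EP300 siRNA library above every control (log2 fold change 0.44 ± 0.10), and the difference was -1.18 ± 0.14 (SE, adjusted p = 0.00055 with edgeR). ADM, the vasodilator adrenomedullin, had a log2 fold change of -0.14 with H2O2 (adjusted p = 0.13 with edgeR), and without library 11 the value was -0.21 and passed. Of 43 genes of glycolysis, pyruvate use and the pentose phosphate pathway 24 were lower and 10 higher (median -0.23), with the regulator PFKFB4, which sets the level of fructose 2,6-bisphosphate, at -0.79.

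**Figure D2:**
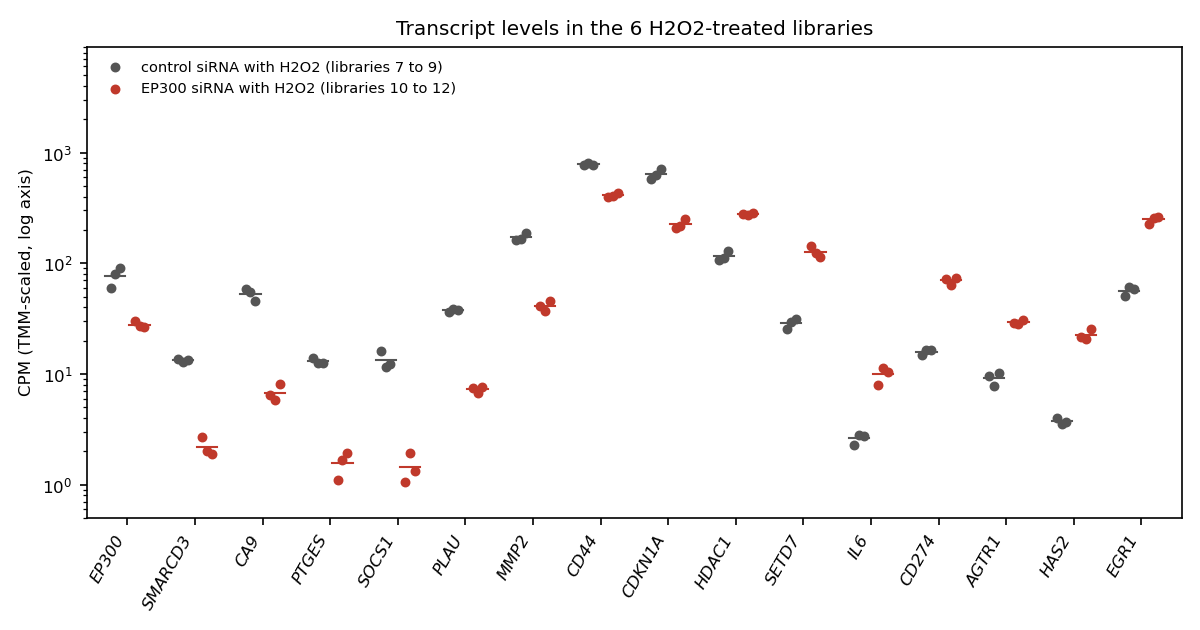
CPM of 16 genes in each of the 6 H2O2-treated libraries, on a log axis, with points for libraries 7 to 9 (control siRNA, grey) and 10 to 12 (EP300 siRNA, red) and a bar at each group mean. Groups do not overlap for any gene shown. All but EP300, MMP2, CD44, CDKN1A and HDAC1 are among the 25 largest rises or falls, for which this was a condition. EP300, SMARCD3, CA9, PTGES, SOCS1, PLAU, MMP2, CD44 and CDKN1A are lower with EP300 siRNA and the other genes higher.

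Prostaglandin genes went both ways. Prostaglandins are made from arachidonic acid that phospholipase A2 releases, by cyclooxygenases (PTGS1, PTGS2) and then terminal synthases, and signal through G protein-coupled receptors. Of 22 members 11 were lower and 8 higher (median -0.43, -0.20 with FPKM and pseudocount 1). PTGES, the inducible prostaglandin E synthase, at chromosome 9, positions 129738331 to 129753047, minus strand, read 14.1, 12.7 and 12.5 CPM with control siRNA and 1.1, 1.66 and 1.93 CPM with EP300 siRNA. Each EP300 siRNA library was under 2 CPM and each control above 12 CPM, a log2 fold change of -3.06 ± 0.14 (SE, adjusted p = 2.8e-10 with edgeR). PTGS2, the inducible cyclooxygenase, was low in all libraries, at 0.377, 0.692 and 0.271 CPM with control siRNA and 1.99, 1.49 and 1.6 CPM with EP300 siRNA, with no overlap (log2 fold change 1.94 ± 0.38 SE, adjusted p = 0.00043 with edgeR). PTGS1, the constitutive cyclooxygenase, fell by 0.95, the prostacyclin receptor PTGIR by 1.07 and the prostaglandin F receptor PTGFR by 1.01. The phospholipase PLA2G12A rose (1.39).

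Cytokine and chemokine genes went both ways, 11 of 34 higher and 9 lower (median 0.11, 0.048 with the GC offset, 0.22 with the length offset, 0.18 without library 9, 0.17 without library 10). IL6, the acute phase cytokine, at chromosome 7, positions 22725884 to 22732002, plus strand, read 2.26, 2.83 and 2.76 CPM with control siRNA and 7.89, 11.4 and 10.4 CPM with EP300 siRNA. CXCL8, the neutrophil chemokine IL-8, read 2.64, 5.03 and 5.85 CPM with control siRNA and 16.3, 19.9 and 18.6 CPM with EP300 siRNA. In both genes all EP300 siRNA libraries stood above all controls, with log2 fold changes of 1.92 ± 0.17 (SE, adjusted p = 2.4e-07 with edgeR) and 2.02 ± 0.20 (SE, adjusted p = 5.8e-07 with edgeR). The chemokine CXCL1 (1.24) and TNFSF4, the OX40 ligand (1.504), rose too.

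The IL6 promoter is shown for its match to the NF-kB site, searched on both strands and in capitals, within 150 bases before the RefSeq start (GRCh38.p14, plus strand).
IL6, chr7:22727050-22727199: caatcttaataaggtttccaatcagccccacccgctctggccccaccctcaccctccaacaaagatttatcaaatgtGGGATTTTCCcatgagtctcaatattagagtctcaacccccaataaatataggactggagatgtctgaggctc
Such a match was found, within 250 bases of the start, in 6.97% of 287 promoters of genes that rose at least 2-fold. It was in 7.31% of 657 promoters of genes that fell at least 2-fold and in 6.01% of all promoters.

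CXCL12, which holds stem and immune cells through CXCR4, went the other way. It read 200.1, 211 and 211 CPM with control siRNA and 48.1, 46.5 and 51 CPM with EP300 siRNA, with every EP300 siRNA library far below the controls and 23.4% left (log2 fold change -2.10 ± 0.07 SE, adjusted p = 3.1e-11 with edgeR). IL34, a ligand of the CSF1 receptor, fell by 2.21 and IL1B by 0.85. Receptors, kinases and feedback inhibitors of cytokines were lower in 23 of 49 and higher in 13 (median -0.22). SOCS1, which blocks JAK kinases, read 16, 11.5 and 12.4 CPM with control siRNA and 1.05, 1.94 and 1.32 CPM with EP300 siRNA, under 2 CPM in each EP300 siRNA library and above 11 CPM in each control (log2 fold change -3.21 ± 0.21 SE, adjusted p = 9.9e-09 with edgeR). SOCS2 and SOCS3, its relatives, fell by 1.09 and 1.02, the interleukin-4 receptor IL4R by 1.27 and the kinase JAK1 by 0.74.

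Genes of antigen presentation went both ways, 15 of 37 higher and 10 lower (median 0.11, 0.056 without a count filter). CD274 (PD-L1), the ligand of the T cell receptor PD-1, at chromosome 9, positions 5450503 to 5470566, plus strand, read 14.7, 16.5 and 16.6 CPM with control siRNA and 72.7, 63.1 and 74.3 CPM with EP300 siRNA, with no overlap (log2 fold change 2.13 ± 0.079 SE, adjusted p = 4.1e-11 with edgeR). The immunoproteasome subunit PSMB8 (0.71) and the HLA class I chain HLA-B (0.47) rose by less, and reads of HLA genes may be shared between near-identical copies. NLRC5, the transactivator of HLA class I genes, fell by 0.74, and VSIR, the checkpoint receptor VISTA, fell by 0.79.

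Clotting, plasminogen and complement genes went both ways. Urokinase, encoded by PLAU, turns plasminogen into plasmin. PLAU, at chromosome 10, positions 73909177 to 73917497, plus strand, read 36.6, 38.5 and 38.2 CPM with control siRNA and 7.51, 6.75 and 7.61 CPM with EP300 siRNA. All EP300 siRNA libraries lay far below the controls, with 19.3% left and a log2 fold change of -2.37 ± 0.084 (SE, adjusted p = 3.1e-11 with edgeR). In cells without H2O2 PLAU read 12.5, 11.5 and 12.3 CPM with control siRNA and 7.75, 8.16 and 6.7 CPM with EP300 siRNA. Controls without H2O2 thus lay below those with it, while the EP300 siRNA libraries of both settings overlapped, and the effect differed by -1.69 ± 0.12 (SE, adjusted p = 1.2e-05 with edgeR).

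PLAT (-0.012, adjusted p = 0.88 with edgeR), tissue plasminogen activator, did not pass. TFPI2, a Kunitz-type protease inhibitor (2.10), and SERPINB2, an inhibitor of urokinase (1.57), rose. Complement C4A and C4B, near-identical copies that may share reads, fell by 1.69 and 2.52. C3 (0.077, adjusted p = 0.65 with edgeR) did not pass. In all, 16 of 35 members were lower and 10 higher (median -0.18, 0 without a count filter, -0.11 without library 9).

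AP-1, EGR, MAF and KLF factors, many of them induced within minutes of a stimulus, were higher in 15 of 35 and lower in 4 (median 0.23). The lower count was 1 in a fit of the 6 libraries with H2O2 alone, and 2 with DESeq2 or without library 10. EGR1, at chromosome 5, positions 138465490 to 138469315, plus strand, read 50.6, 61.1 and 58.6 CPM with control siRNA and 228, 254 and 265 CPM with EP300 siRNA, with every EP300 siRNA library above 220 CPM and every control below 62 CPM (log2 fold change 2.13 ± 0.08 SE, adjusted p = 4.5e-11 with edgeR). IER2 (1.44), ATF3 (0.84) and JUN (0.49) rose, FOSL1 (-0.10, adjusted p = 0.32 with edgeR) did not pass, and KLF9, a steroid-responsive factor, fell by 1.11.

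The EGR1 promoter is shown because serum response factor acts at CArG boxes of this gene. The 150 bases before the RefSeq start (GRCh38.p14, plus strand) held 2 matches to the CArG box, searched on both strands, in capitals.
EGR1, chr5:138465329-138465478: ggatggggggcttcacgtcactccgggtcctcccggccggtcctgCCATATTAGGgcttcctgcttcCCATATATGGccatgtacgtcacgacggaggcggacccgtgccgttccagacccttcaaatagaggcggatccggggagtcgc
A CArG box was found within 250 bases of the start in 1.05% of promoters of genes that rose at least 2-fold. Of promoters of genes that fell as much 0.913% held it, and of all promoters 0.994%. TATAA letters, on either strand, were in 22% of promoters of genes that rose at least 2-fold, 10.4% of those that fell at least 2-fold and 10.7% of all. The AP-1 letters TGANTCA, searched in the same way, were in 9.06%, 3.50% and 3.90%.

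Collagen genes went both ways. Of 33 tested, 14 were called lower and 7 higher (median -0.22, -0.091 without library 9), and 8 had an effect that differed with H2O2. COL6A1 and COL6A2, neighbouring genes for 2 chains of beaded collagen VI, fell by 1.03 and 0.80, while COL6A3 (-0.24, adjusted p = 0.064 with edgeR), the third chain, did not pass. Its fold change passed at -0.31 without library 7, at -0.26 with upper quartile scaling and at -0.36 with an offset for gene length. COL4A1, a chain of basement membrane collagen IV, rose (1.11 ± 0.10), and COL8A1, a short-chain collagen, rose (1.27). Of the chains of fibrillar collagen I, COL1A1 fell by 0.43 and COL1A2 rose (0.46), and COL3A1 (-0.17, adjusted p = 0.26 with edgeR), the chain of collagen III, did not pass except without library 8 (-0.32).

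Collagen processing and elastic fibre genes were lower in 25 of 47 and higher in 7 (median -0.21), or in 4 without library 12. The lysyl oxidase LOXL1, which cross-links elastin, fell by 1.19, and THBS1, the matrix protein thrombospondin 1, by 1.59. LOX, the founding lysyl oxidase, read 240.0, 289.6 and 329 CPM with control siRNA and 244, 243 and 269 CPM with EP300 siRNA (log2 fold change -0.18, adjusted p = 0.11 with edgeR), with overlapping groups, and passed at -0.30 without library 7 and with offsets for gene length (-0.22) or GC content (-0.32). In libraries without H2O2 it read 148, 128 and 121 CPM with control siRNA and 242, 235 and 239 CPM with EP300 siRNA, all EP300 siRNA libraries higher, and the difference between the effects was -1.03 ± 0.14 (SE, adjusted p = 0.00091 with edgeR).

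Matrix proteases and their inhibitors were lower in 20 of 40 and higher in 6 (median -0.26). MMP2, the gelatinase that cuts collagen IV, at chromosome 16, positions 55389700 to 55506691, plus strand, read 162, 167 and 188 CPM with control siRNA and 41.6, 36.7 and 45.7 CPM with EP300 siRNA. EP300 siRNA libraries held 24% of the control level, with no overlap (log2 fold change -2.06 ± 0.078 SE, adjusted p = 4.7e-11 with edgeR). ADAMTS15, an aggrecan-cutting protease, fell by 3.40, MMP14, which activates MMP2, by 0.39 and the inhibitor TIMP3 by 0.25. Integrins and laminins were lower in 15 of 29 and higher in 8 (median -0.20, -0.32 without a count filter). The laminin chains LAMA5 and LAMB1 fell by 2.08 and 1.40, and the collagen receptor subunits ITGA11 and ITGA2 by 1.60 and 0.92. ITGA1, another collagen receptor subunit, rose (1.06), and so did its partner ITGB1 (0.37).

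Hyaluronan is a long sugar polymer of the matrix, made at the plasma membrane by HAS enzymes and bound by CD44. HAS2, at chromosome 8, positions 121612116 to 121641390, minus strand, read 3.99, 3.52 and 3.69 CPM with control siRNA and 21.5, 20.8 and 25.6 CPM with EP300 siRNA, so that controls stayed below 4 CPM and EP300 siRNA libraries above 20 CPM (log2 fold change 2.60 ± 0.12 SE, adjusted p = 1.8e-10 with edgeR). CD44 read 779, 811 and 779.6 CPM with control siRNA and 398, 403 and 436 CPM with EP300 siRNA, lower in each EP300 siRNA library, with 52.2% left (log2 fold change -0.94 ± 0.049 SE, adjusted p = 8.4e-10 with edgeR). Its values without H2O2 were 248, 242 and 247 CPM with control siRNA and 220.3, 222 and 216 CPM with EP300 siRNA, and the effect there was -0.16, a difference of -0.77 ± 0.07 (SE, adjusted p = 9.4e-05 with edgeR). CEMIP, which breaks hyaluronan down, fell by 1.93, and TNFAIP6, which links hyaluronan to other proteins, rose (2.17). Among proteoglycans VCAN, a large hyaluronan-binding one, rose (1.03) and decorin DCN fell by 1.12. Of 32 members 8 were higher and 12 lower (median -0.064, 0 without a count filter, -0.013 without library 8).

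TGF-beta, activin and BMP genes were lower in 23 of 48 and higher in 10 (median -0.15, -0.28 with the GC offset). SMAD6, an inhibitory SMAD, fell by 2.60 and ID1 and ID2, inhibitors of helix-loop-helix factors, by 1.51 and 2.14. ID2 read 17.6, 19.7 and 18.3 CPM with control siRNA and 4.47, 4.75 and 3.42 CPM with EP300 siRNA, with no overlap. The ligands went both ways: TGFB1 fell by 0.44, TGFB2 rose (0.46), and the activin subunit INHBE rose (2.47). GREM1, a secreted BMP antagonist, rose (0.29).

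In the Wnt list 23 of 39 were lower and 4 higher (median -0.33). AXIN2, a feedback inhibitor that beta-catenin induces, read 2.15, 2.01 and 2.17 CPM with control siRNA and 0.662, 0.972 and 0.496 CPM with EP300 siRNA, low in all libraries and without overlap (log2 fold change -1.57 ± 0.30 SE, adjusted p = 0.00033 with edgeR). The coreceptor LRP5 fell by 1.48, the R-spondin receptor LGR5 by 1.56, and PORCN, the enzyme that adds lipid to Wnt ligands, by 1.53. The antagonist SFRP1 had a log2 fold change of -0.056 (adjusted p = 0.51 with edgeR).

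Notch genes had the largest share of lower calls among the signalling lists, 17 of 27, with 4 higher (median -0.53, -0.19 with FPKM and pseudocount 1). Notch receptors are cut after binding ligands of the Delta and Jagged families, and the freed part joins RBPJ and Mastermind proteins, which bring in p300. The ligand JAG2 read 5.93, 5.34 and 6.5 CPM with control siRNA and 1.38, 2.06 and 1.71 CPM with EP300 siRNA. The glycosyltransferase LFNG, which tunes ligand choice, read 10.5, 8.86 and 9.76 CPM with control siRNA and 3.04, 2.63 and 3.25 CPM with EP300 siRNA. Both were lower in every EP300 siRNA library, with log2 fold changes of -1.79 ± 0.16 (SE, adjusted p = 2.7e-07 with edgeR) and -1.70 ± 0.13 (SE, adjusted p = 3.6e-08 with edgeR). The target HES1 fell by 1.52, HES6 by 1.30, the ligand DLL1 by 3.19, the Mastermind MAML3 by 2.17, the receptor NOTCH3 by 0.81 and the ligand JAG1 by 0.62. NOTCH2 (0.25, adjusted p = 0.12 with edgeR) did not pass. With deposited FPKM 10 members were lower and 4 higher.

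Growth factors and receptor tyrosine kinases were lower in 25 of 53 and higher in 19 (median -0.18, -0.066 with FPKM and pseudocount 1, -0.11 without library 10). Insulin-like growth factor IGF2 fell by 1.74, the PDGF receptor PDGFRB by 1.14 and NGFR, the low-affinity neurotrophin receptor, by 2.51. IGFBP5, an IGF-binding protein, rose (1.65) with the fibroblast growth factors FGF2 (0.83) and FGF5 (1.27). Guidance genes, that is semaphorins, plexins, ephrins and their receptors, were lower in 27 of 46 and higher in 4 (median -0.46). SLIT3 fell by 2.49, SEMA5A by 2.26, SEMA6B by 1.60 and the ephrin EFNB1 by 1.37, while SEMA7A, a GPI-anchored semaphorin, rose (0.49). EPHA2, an ephrin receptor, rose too (0.32).

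Cardiac and contractile genes went both ways, 16 of 38 higher and 14 lower (median 0.023, 0.24 with DESeq2, 0.23 without library 9, 0.11 without library 10, 0.12 without library 11, 0.17 without library 12). ANKRD1, the cardiac ankyrin repeat protein and a YAP target, at chromosome 10, positions 90912096 to 90921276, minus strand, read 30.3, 26.8 and 26.1 CPM with control siRNA and 68.3, 72.6 and 73 CPM with EP300 siRNA, with no overlap (log2 fold change 1.36 ± 0.071 SE, adjusted p = 8.2e-10 with edgeR). The smooth muscle actin ACTA2 (0.86) and the tropomyosins TPM2 (1.07) and TPM4 (1.28) rose, and calponin CNN1 and natriuretic peptide NPPB fell by 1.33 and 0.43. Of 33 gap junction, desmosome and cadherin genes 6 were higher and 10 lower (median -0.032, -0.13 with FPKM and pseudocount 0.1, 0.089 without library 9, -0.090 without library 10, 0.077 without library 11). Connexin 43, GJA1, fell by 1.01 and the tight junction protein CLDN1 rose (2.45). Of these, 3 were higher without library 10 or with deposited FPKM.

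Among 43 ion channels 13 were higher and 13 lower (median 0.036, -0.10 without a count filter, -0.026 without library 7). The calcium-permeable channel TRPV4 fell by 3.12, the acid-sensing ASIC1 by 1.87 and the calcium-activated potassium channel KCNN4 by 1.56, and the sodium channel SCN9A rose (1.77). Of 44 genes for receptors of vascular and stress ligands, endothelin and RGS regulators 21 were lower and 9 higher (median -0.35). AGTR1, the type 1 angiotensin II receptor, at chromosome 3, positions 148697784 to 148743008, plus strand, read 9.54, 7.79 and 10.2 CPM with control siRNA and 29, 28.2 and 30.9 CPM with EP300 siRNA, all EP300 siRNA libraries above all controls (log2 fold change 1.67 ± 0.095 SE, adjusted p = 1.9e-09 with edgeR). The bradykinin receptors BDKRB1 and BDKRB2, neighbours on chromosome 14, fell by 1.56 and 1.95, and the lysophosphatidic acid receptor LPAR1 by 0.79.

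Genes of the G1 phase of the cell cycle went both ways. The cell cycle inhibitor CDKN1A (p21), at chromosome 6, positions 36676460 to 36687339, plus strand, read 577, 629 and 710.0 CPM with control siRNA and 207, 217 and 249.6 CPM with EP300 siRNA, all EP300 siRNA libraries below all controls, with 35.1% left (log2 fold change -1.51 ± 0.08 SE, adjusted p = 9.2e-10 with edgeR). CDKN1C (p57) fell by 2.79, CDKN2B (p15) by 1.16 and CDKN1B (p27) by 0.81. Cyclin E1, CCNE1, fell by 2.54, cyclin D-dependent kinase CDK6 rose (1.15), and so did RBL1 (p107), a retinoblastoma relative (1.17). Of 31 members 14 were higher and 11 lower (median 0.091, 0.14 with the GC offset). Of 25 MAPK phosphatases, Sproutys and receptor inhibitors 10 were lower and 6 higher (median -0.105, -0.047 without library 10). DUSP1 (0.90) and DUSP5 (0.82) rose, and SPRY1 and LRIG1 fell by 1.72 and 1.82.

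BCL2 family, death receptor and caspase genes were higher in 18 of 43 and lower in 10 (median 0.048, 0.15 without library 8). Cytochrome c, CYCS, rose (1.07) with the survival factor BCL2L1 (0.70). BMF, a BH3-only death factor, fell by 2.29 and the survival factor MCL1 by 0.46. In DNA damage signalling and repair 23 of 59 were higher and 17 lower (median 0.10). XRCC2, a factor of homologous recombination, rose (1.62), as did NEIL3, a DNA glycosylase (0.58). The DNA ligase LIG3 fell by 1.29, NTHL1, another glycosylase, by 1.33 and the repair scaffold XRCC1 by 0.62.

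Genes that remove peroxide or make and use glutathione were close to the background, 17 of 55 higher and 16 lower (median -0.016, 0.077 without library 10, 0.066 without library 7). SLC7A11, the cystine importer, read 15.4, 15.7 and 21.8 CPM with control siRNA and 61.1, 52.1 and 53.8 CPM with EP300 siRNA, with no overlap (log2 fold change 1.66 ± 0.13 SE, adjusted p = 4.4e-08 with edgeR). PRDX4, the peroxiredoxin of the endoplasmic reticulum (1.28), PRDX1 (0.40) and mitochondrial superoxide dismutase SOD2 (0.56) rose, and GGT5, a gamma-glutamyltransferase of the cell surface, fell by 4.41. GGT5 was not among the 25 largest falls named below, which needed at least 5 CPM and no overlap. Glutathione peroxidase GPX1, which reduces H2O2, had a log2 fold change of 0.13 (adjusted p = 0.33 with edgeR). It passed at 0.41 with an offset for GC content and at 0.23 with one for gene length.

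The 2 ferritin chains moved apart. FTH1, the heavy chain with the iron-oxidising site, at chromosome 11, positions 61959718 to 61967660, minus strand, read 1929, 1758 and 1591 CPM with control siRNA and 1098, 1246 and 1199.5 CPM with EP300 siRNA. FTL, the light chain, at chromosome 19, positions 48965301 to 48966878, plus strand, read 3370.2, 2948 and 2653 CPM with control siRNA and 4725, 5527 and 5219 CPM with EP300 siRNA. Every EP300 siRNA library was below all controls for FTH1 and above all controls for FTL, with log2 fold changes of -0.57 ± 0.085 (SE, adjusted p = 3.8e-05 with edgeR) and 0.79 ± 0.089 (SE, adjusted p = 2.5e-06 with edgeR). Per length, FTH1 went from 2081, 1956 and 1749 to 1216, 1352 and 1283 FPKM and FTL from 5747, 5233 and 4623 to 8358, 9508 and 8810.4 FPKM (libraries in order). Both genes have processed pseudogene copies, so some of their reads may be divided. The transferrin receptor TFRC rose (0.70) with metallothionein MT2A (0.78), and the ferrireductase STEAP3 fell by 1.46. Of 30 members 12 were higher and 10 lower (median 0.071, -0.037 with FPKM and pseudocount 0.1).

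SLC12A8, reported as a transporter of nicotinamide mononucleotide, at chromosome 3, positions 125082636 to 125212864, minus strand, read 81.1, 85.4 and 84.4 CPM with control siRNA and 10.7, 10.3 and 9.1 CPM with EP300 siRNA, with 12% left and no overlap (log2 fold change -3.06 ± 0.075 SE, adjusted p = 1.8e-12 with edgeR). Nicotinamide N-methyltransferase NNMT fell by 0.87 and NMNAT2, an NAD-synthesising enzyme, by 0.83, and PSAT1 of serine synthesis rose (1.47). The NAD and one-carbon list held 13 higher and 11 lower of 37 (median 0.013, -0.065 with DESeq2). In the sterol and lipid list 24 of 57 were lower and 11 higher (median -0.057), with stearoyl-CoA desaturase SCD falling by 0.63, the cholesterol exporter ABCA1 by 0.75 and monoglyceride lipase MGLL rising (1.38).

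Of 77 cytosolic ribosomal proteins 27 were lower and 3 higher (median -0.14, -0.043 with the length offset, -0.054 without library 7, -0.081 without library 10), led by RPL30 (-1.02) and RPL35 (-0.64). The lower count was 12 without control library 7 or without EP300 siRNA library 10. Both libraries lay at ends of the within-group axis that followed gene length, and the part of gene length in these counts was not tested. With an offset for gene length 15 were higher and 29 lower. Proteasome subunits were higher in 18 of 37 and lower in 4 (median 0.17, 0.092 without library 9), with PSMC3 of the base at 0.91 and PSMB10 of the immunoproteasome at -0.73. Without library 9, 7 were lower. Of 100 nuclear-encoded respiratory chain genes 16 were higher and 19 lower (median -0.012, 0.072 with the length offset, 0.061 without library 7, -0.086 without library 9). With an offset for gene length 38 were higher and 19 lower. Without library 7, 26 were higher and 14 lower, and without library 9, 12 were higher and 28 lower.

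Zinc finger genes named ZNF had the largest share of higher calls of the lists examined. Most encode C2H2 proteins, many with a KRAB domain that recruits TRIM28 and silences retroelements, and many lie in clusters on chromosome 19. Of 464 tested, 242 were higher and 57 lower (median 0.36, 0.23 with FPKM and pseudocount 1). On chromosome 19, 131 of 227 were higher and 13 lower (median 0.47), and elsewhere 110 of 236 were higher and 44 lower (median 0.21). ZNF721 read 7.54, 8.42 and 7.8 CPM with control siRNA and 29.6, 33.3 and 29.1 CPM with EP300 siRNA, with no overlap (log2 fold change 1.95 ± 0.086 SE, adjusted p = 1.8e-10 with edgeR). ZNF708 read 2.42, 3.33 and 2.82 CPM with control siRNA and 10.5, 10.6 and 8.82 CPM with EP300 siRNA, again with no overlap (log2 fold change 1.81 ± 0.14 SE, adjusted p = 3.6e-08 with edgeR). Over other settings 195 to 258 ZNF genes were higher and 49 to 61 lower. Reads of neighbouring ZNF copies may be shared.

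ZNF transcripts are poor in GC, at a median of 43.0%, and over all genes the fold change and GC content had a rank correlation of -0.32. Genes were divided into 3 equal groups by GC content. In the lowest group, under 44.1%, 61.9% of 265 ZNF genes and 39.4% of 4028 other genes were higher. In the middle group the shares were 50.8% of 120 and 28.2% of 4166, and in the highest, above 54.4%, 20.5% of 78 and 15.7% of 4211. With an offset that removes the dependence on GC per library, 246 ZNF genes were higher and 51 lower. The part of GC content in single results was not tested beyond this offset, which was added after seeing the data.

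**Figure D3:**
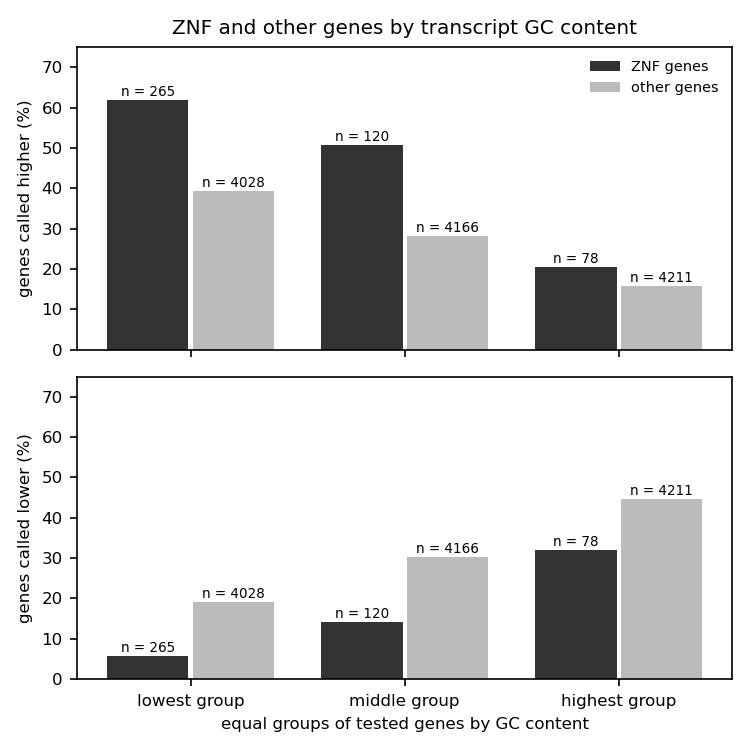
Share of genes called higher (upper panel) or lower (lower panel) with EP300 siRNA in H2O2-treated cells, in percent, for ZNF genes (dark bars) and all other tested genes (light bars), in 3 equal groups of genes by transcript GC content. ZNF genes were higher in 61.9%, 50.8% and 20.5% from low to high GC, against 39.4%, 28.2% and 15.7% of other genes.

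The effect of EP300 siRNA was then compared between cells with and without H2O2 by the interaction, the log2 fold change with H2O2 minus that without. Of 13171 genes 439 (3.33%) were called, 148 with a higher and 291 with a lower value with H2O2. This count rested on single libraries: without library 7 it was 709 and without library 1 it was 681, and without one of the other 10 libraries it lay between 196 and 359. Of the genes named in the text, 53 were called, and 31 of these stayed called under each of the alternatives tried. The genes described next, and those plotted, are among the latter.

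**Figure D4:**
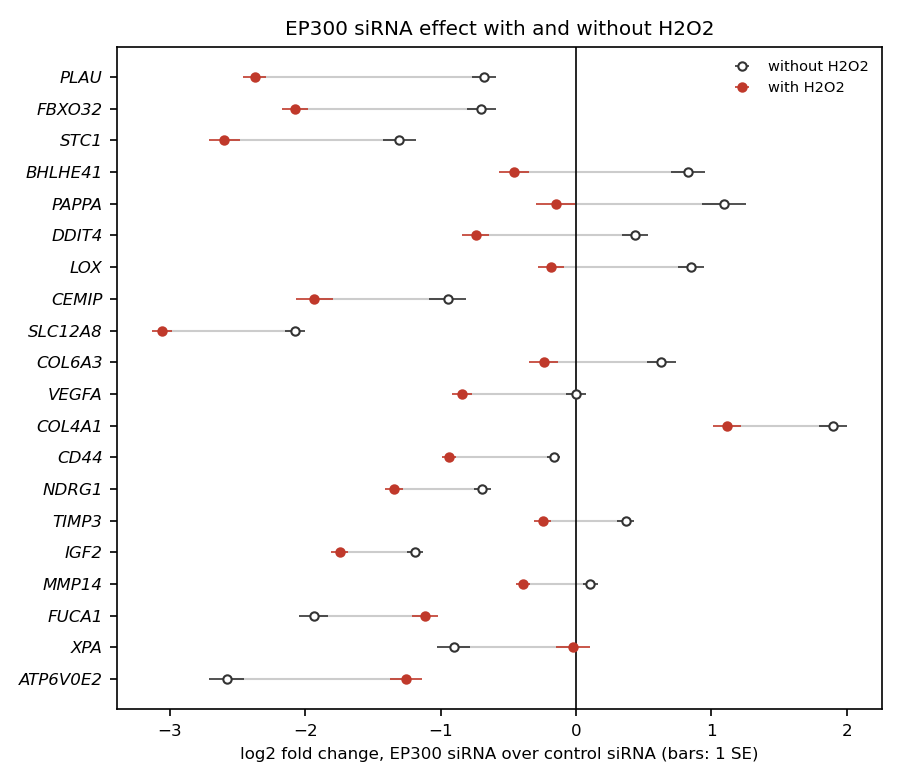
Log2 fold change with EP300 siRNA in cells without H2O2 (open circles) and with H2O2 (filled circles) for 20 genes, with bars of 1 SE, ordered by the difference. The difference ran from -1.69 for PLAU at the top to 1.32 for ATP6V0E2 at the bottom.

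Among lower values PLAU, STC1 and DDIT4 were described above. FBXO32 (atrogin-1), the ubiquitin ligase of muscle atrophy, at chromosome 8, positions 123497889 to 123541206, minus strand, read 26.3, 25.3 and 24.1 CPM with control siRNA and 6.73, 5.83 and 5.4 CPM with EP300 siRNA, lower in every EP300 siRNA library, with 23.8% left (log2 fold change -2.07 ± 0.10 SE, adjusted p = 2.5e-10 with edgeR). Without H2O2 it read 9.5, 8.44 and 8.06 CPM with control siRNA and 5.68, 5.16 and 5.18 CPM with EP300 siRNA, a log2 fold change of -0.70 ± 0.11. The EP300 siRNA libraries of both settings overlapped and the controls did not, with a difference between the effects of -1.38 ± 0.15 (SE, adjusted p = 0.00028 with edgeR). BHLHE41 (DEC2), a clock repressor, read 14.3, 12.8 and 11.8 CPM with control siRNA and 9.27, 9.26 and 9.76 CPM with EP300 siRNA in cells with H2O2. Without H2O2 it read 6.49, 5.31 and 4.82 CPM with control siRNA and 10.4, 10.4 and 8.78 CPM with EP300 siRNA. It was lower in each EP300 siRNA library with H2O2 and higher in each without, a difference of -1.28 ± 0.17 (SE, adjusted p = 0.00088 with edgeR). PAPPA, a protease that cuts IGF-binding proteins, rose without H2O2 (1.09 ± 0.16) and had a log2 fold change of -0.15 with it (adjusted p = 0.38 with edgeR), a difference of -1.25. With an offset for gene length the value with H2O2 was -0.28 and passed.

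Among higher values ATP6V0E2, a subunit of the vacuolar proton pump, fell in both settings. It read 19, 18.9 and 16.1 CPM with control siRNA and 6.68, 8.12 and 7.77 CPM with EP300 siRNA in cells with H2O2. Values without H2O2 were 21.3, 24.3 and 26.5 CPM with control siRNA and 4.75, 3.51 and 3.76 CPM with EP300 siRNA, so the fall was smaller with H2O2 by 1.32 ± 0.18 (SE, adjusted p = 0.0013 with edgeR). FUCA1, the lysosomal fucosidase, read 34.8, 31.9 and 33.7 CPM with control siRNA and 15.1, 16.5 and 14.7 CPM with EP300 siRNA in cells with H2O2. In cells without H2O2 it read 22.8, 28.1 and 26.3 CPM with control siRNA and 7.81, 6.46 and 5.89 CPM with EP300 siRNA, a fall in both settings with a difference of 0.82 ± 0.15 (SE, adjusted p = 0.0071 with edgeR). XPA, a damage-recognition factor of nucleotide excision repair, fell without H2O2 (-0.90 ± 0.12) and had a log2 fold change of -0.023 with it (adjusted p = 0.88 with edgeR), a difference of 0.88 ± 0.17 (SE, adjusted p = 0.012 with edgeR). Of 53 autophagy and lysosome genes 18 were higher and 16 lower with H2O2 (median 0.0093), among them the cargo receptor SQSTM1 (0.67) and the lysosomal membrane protein LAMP1 (0.42), which both rose.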

How the data were processed

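RNA was sequenced from 12 libraries of AC16 cells, 3 in each of 4 groups, of which 6 had H2O2. The authors deposited estimated counts per gene symbol, not scaled between libraries, and a table of FPKM covering 17197 symbols each. HISAT, Bowtie2 and the build GRCh38.p13 are named in the submitters' processing notes. Not given in the sources used here are the counting program, the annotation and the strand setting, so reads of overlapping genes and of near-identical copies may be divided arbitrarily.

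Counts were rounded and tested with edgeR 4.0.16 in R 4.3.3 (quasi-likelihood test, TMM scaling, filterByExpr, 1 mean per group over all 12 libraries, two-sided, Benjamini-Hochberg adjustment over 13171 genes). The log2 fold change contrasts EP300 siRNA with control siRNA, both with H2O2, and the interaction subtracts the same contrast without H2O2. Gene positions and GC content came from GENCODE v29 (GRCh38), promoters from RefSeq (GRCh38.p14), with a promoter for 10664 of the 13171 genes. On simulated counts the test recovered 85% of 1.5-fold and 98% of 2-fold changes in this contrast over 13055 genes, and called 15 unchanged genes. For the interaction, over 13058 genes, it recovered 60% and 93% and called 5. The simulation changed 100 genes at each fold, gave all genes the same dispersion and had no shared axis within groups. Its rates may therefore not hold for these libraries. Replicate pairs of each group differed beyond sampling noise (chi-square over degrees of freedom 1.78 to 18.1).

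Members and gene lists were chosen with earlier results of these data known. Named are EP300, CREBBP, MLF1, each list's key genes and its up to 6 called members with the largest fold changes at 1 CPM or more. Among all called genes without overlap between the 2 groups, the 25 largest rises and falls at 5 CPM or more were named too. Changes as large in GGT5, DLL1, TRPV4, SMAD6, CCNE1, NGFR, SLIT3, INHBE and CLDN1 were not among these. Those genes missed the level or the overlap condition. The 10 largest interactions each way and cell type markers were added. Of these, only some are described, and genes whose call with H2O2 was lost under an alternative were left out. Genes outside this rule appear without values. Alternatives were other scalings, DESeq2 1.42.0, other filters, limma 3.58.1 on log2(FPKM + 1) or log2(FPKM + 0.1), offsets for gene length or GC content, and leaving out each library.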

Additional observations from a re-analysis of the deposited data

Results flagged for a closer look

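The EP300 siRNA effect differed between cells with and without H2O2 for 53 of the genes named in the text, by the edgeR interaction test at an adjusted p under 0.05. Some of these genes were named because this difference was large, so their number says nothing beside the share over all genes. Each value below is the log2 fold change with H2O2 minus that without. The difference stayed called under all 22 alternatives for 31 of them.

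Lower values with H2O2 that held in this way were found in the matrix genes LOX (-1.03), CEMIP (-0.98), COL6A3 (-0.87), COL4A1 (-0.79), CD44 (-0.77), ITGA11 (-0.76), TIMP3 (-0.61), COL6A1 (-0.56), MMP14 (-0.50), COL6A2 (-0.44) and COL1A1 (-0.40), in the hypoxia-linked genes STC1 (-1.29), DDIT4 (-1.18), VEGFA (-0.85), NDRG1 (-0.65) and ADM (-0.64), and in the plasminogen and growth factor genes PAPPA (-1.25), PLAU (-1.69), PDGFRB (-0.62), IGF2 (-0.56) and LRIG1 (-0.56). The same held for FBXO32 (-1.38), BHLHE41 (-1.28), SLC12A8 (-0.98), NMNAT2 (-0.77), PSAT1 (-0.48), CDKN1B (-0.41) and GFPT2 (-0.86). Higher values that held were those of FUCA1 (0.82), XPA (0.88) and ATP6V0E2 (1.32).

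The other 22 were called in the fit reported here and lost the call under at least 1 alternative, in most cases when 1 library was left out. Their values were lower with H2O2 for TNFAIP6 (-1.44), ITGA2 (-1.08), ADAMTS15 (-1.03), C4B (-0.88), SLC7A11 (-0.80), ID2 (-0.74), CA9 (-0.73), JAG1 (-0.64), LAMA5 (-0.57), KLF9 (-0.54) and KDM5B (-0.52). They were also lower for PLAT (-0.45), CXCL12 (-0.43), NLRC5 (-0.40), VSIR (-0.39), SEMA7A (-0.35), TPM4 (-0.33) and LDHA (-0.31). Values were higher for HDAC1 (0.37), SUV39H2 (0.37), ANKRD1 (0.47) and SEMA6B (0.69).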

How the results depend on the processing

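The counts of genes called with H2O2 moved by less than 1.5 times under every alternative, from 7075 without library 10 to 8535 with an offset for gene length, and the median fold change of all genes shifted by less than 0.1 under each scaling. Changes of at least 2-fold numbered 1240 in the edgeR fit. With deposited FPKM they numbered 854 at a pseudocount of 0.1 and 468 at a pseudocount of 1, and a larger pseudocount compresses low genes more. The FPKM fits also tested fewer genes, 11812, and the part of each difference was not tested. The interaction count was the least stable, 1116 with the length offset and 196 to 709 when single libraries were left out, against 439; the cause was not tested. EP300 kept its fall under all alternatives. Of 489 tested genes that the naming rule gave, 420 were called with H2O2, of which 21 lost the call under at least 1 alternative, and 69 were not called, of which 33 gained a call. Those 21 genes were left out of the text after their values were seen, so the stability of the named genes is partly one of choice. In the interaction 96 of the 489 were called and 44 of these lost the call under at least 1 alternative. The GC offset was chosen after seeing the data. Where the count of lower cytosolic ribosomal protein genes was 27, it was 12 without library 7 or 10. No paired analysis was possible because the labels give no replicate numbers shared between groups. Depth of 16081437 to 19033679 counts per library limits genes near 1 CPM, where few counts stand behind each value.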

Other observations

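Further gene groups follow. Annexins and S100 proteins were lower in 14 of 22 and higher in 5 (median -0.31, -0.20 with the length offset), with S100A10, the partner of annexin A2, falling by 0.89 and S100A4, a calcium-binding protein of motile cells, by 1.28. ANXA8 and its near-identical copy ANXA8L1, between which reads may be divided arbitrarily, fell by 2.80 and 2.44. Of 15 keratin and keratin-associated genes 6 were higher and 7 lower (median -0.20, -0.56 without a count filter, -0.030 with FPKM and pseudocount 1, -0.12 without library 10). The basal keratin KRT17 rose (1.17), and the simple epithelial keratin KRT8 fell by 0.57. With deposited FPKM 4 were lower. HOX genes, which set position along the body axis, were lower in 9 of 30 and higher in 2 (median -0.28, -0.16 with FPKM and pseudocount 1), with HOXA10 falling by 1.75 and HOXC6 rising (1.01). Over other settings 1 to 5 were higher. Clock and nuclear receptor genes were lower in 17 of 42 and higher in 8 (median -0.0395, -0.17 with FPKM and pseudocount 0.1, -0.11 without library 10). Mitochondrial ribosomal proteins held 20 higher and 19 lower of 78 (median -0.025, 0.043 with the length offset, 0.033 without library 7, -0.088 without library 9). Without library 7, 26 were higher and 14 lower, without library 9, 15 and 28, and with the length offset 30 and 19. Amino acid transporters held 8 higher and 10 lower of 29 (median -0.15, -0.018 with the GC offset, -0.088 without library 7), all adjusted over all genes with edgeR.

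Among the 25 largest rises over all genes were STXBP6, a regulator of vesicle fusion, which read 13.4, 12.9 and 12.6 CPM with control siRNA and 53.6, 50.5 and 48.6 CPM with EP300 siRNA (log2 fold change 1.97 ± 0.071 SE, adjusted p = 3.2e-11 with edgeR), and KISS1, the kisspeptin precursor, which read 15.7, 11.4 and 11.9 CPM with control siRNA and 38, 46.2 and 48.8 CPM with EP300 siRNA (log2 fold change 1.77 ± 0.15 SE, adjusted p = 1.1e-07 with edgeR). PRKAA2, the catalytic alpha-2 subunit of AMP-activated kinase, rose (1.69). Among the 25 largest falls were DEPTOR, an inhibitor of mTOR, which read 12.2, 12.9 and 10.5 CPM with control siRNA and 2.21, 1.66 and 2.15 CPM with EP300 siRNA (log2 fold change -2.56 ± 0.15 SE, adjusted p = 2.2e-09 with edgeR), and ALDH1A3, which makes retinoic acid and read 36.1, 35.9 and 41.2 CPM with control siRNA and 6.02, 4.97 and 7.99 CPM with EP300 siRNA (log2 fold change -2.57 ± 0.13 SE, adjusted p = 4.9e-10 with edgeR). GFPT2, an enzyme of hexosamine synthesis, fell by 2.50 and cytoglobin CYGB by 2.33. Groups did not overlap for any of these genes, which was a condition of entering the 25 rises or falls.

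Falls of 2-fold or more lay mostly among genes of low level per length. Genes were divided into 5 equal groups by FPKM. In the lowest group, up to 1.96 FPKM, 499 of 2635 fell at least 2-fold and 136 rose as much, and in the highest group, from 38 FPKM, 47 of 2634 fell and 36 rose.

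Shares of calls differed between chromosomes. On chromosome 22, which carries EP300, 40.2% of 321 genes were lower and 17.4% higher, and on chromosome 4, 25.6% of 468 were lower and 34.4% higher. The median transcript GC content was 57.8% on chromosome 22 and 42.6% on chromosome 4, and chromosome 19, at 58.9%, had 33.3% lower and 25.4% higher. The part of GC content in these shares was not tested.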
